A study of Mus musculus with 10 samples.

Results

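Cells that find DNA in their cytosol can answer with type I interferon. The enzyme cGAS binds the DNA and makes the second messenger cGAMP, which is bound by STING, a membrane protein of the endoplasmic reticulum. STING then recruits the kinases TBK1 and IKKε, the transcription factor IRF3 is phosphorylated, and interferon and chemokine genes are transcribed. Nucleases that clear DNA and the cGAMP hydrolase ENPP1 hold the pathway in check, and in tumors it is best known in macrophages and dendritic cells that take up tumor DNA.

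The expression of 8 genes of this pathway was examined in subcutaneous WEHI-164 tumors, a fibrosarcoma line grown in BALB/c mice. They were Sting1, which encodes STING, the DNA sensors Cgas and Ifi204, the kinases Tbk1 and Ikbke, the exonuclease Trex1, the deoxynucleotide hydrolase Samhd1, and Enpp1. All 8 were found by symbol among 26378 named genes and other features of the expression table, and all 8 passed the filter on low values that left 14944 features to test. The 8 genes were selected on results of the comparison between responders and non-responders, so their values in that comparison are given as a description without a test.

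RNA sequencing was done on the part of each tumor that was removed surgically, before a hydrogel loaded with the double-stranded RNA mimic poly(I:C) was applied to the residual tumor. All 10 mice were wild-type female BALB/c animals and all 10 tumor pieces were untreated when collected. The mice were later sorted into 5 responders (RS) and 5 non-responders (NR), which in the study stood for complete regression and for no delay in growth. Each tumor is named by its group and its tumor number. Total estimated counts ran from 16002949 in responder 9 to 31160790 in responder 11, and from 19863863 in non-responder 3 to 28276142 in non-responder 2.

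Markers of cell types were looked at first, which cannot test the tumor label because mesenchymal genes are not particular to the WEHI-164 line. All 8 mesenchymal markers were expressed, with Vim at a mean CPM (the count scaled to the library size after TMM normalization) of 4936 in responders and 4718 in non-responders, while of 5 keratinocyte markers Krt1 had no count in any tumor and only Krt10 passed the filter, at 3.13 CPM. Macrophage genes were abundant too, so that the pieces held tumor and host cells together. In such bulk samples fewer cells of a type and less RNA per cell cannot be told apart. Some tumors stood apart among the responders in the genes described here. Responder 11, also the deepest library, had the highest value of its group for Sting1, Ikbke, Trex1, Samhd1 and Ifi204, and responder 5 had the lowest for Sting1, Ikbke and Enpp1.

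With all 10 tumors, Sting1 was the member that differed most between the groups. It was measured at 71.0, 81.8, 80.6, 89.9 and 72.5 CPM in responders 5, 9, 10, 11 and 12. In non-responders 1, 2, 3, 6 and 7 it was measured at 65.1, 62.6, 68.3, 65.2 and 58.4 CPM. Every responder was above every non-responder, and the gap between the nearest tumors, responder 5 and non-responder 3, was narrow. The means were 79.2 ± 7.67 and 63.9 ± 3.69 CPM (SD, n = 5 per group). By the fit across all features Sting1 was 1.24-fold higher in responders, with a log2 fold change of 0.31 and a standard error of 0.07, and standard errors follow the ± of each log2 fold change from here on. Of all features tested, 0.408% had every responder above every non-responder and 0.475% had every responder below, but Sting1 was chosen on this contrast and nothing is read from those shares. The log2 fold change was 0.26 without responder 11 and 0.35 without responder 5. That of Trex1 was larger without non-responder 6 (0.33 against 0.31 for Sting1) and without responder 9 (0.32 against 0.3).

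**Figure D1:**
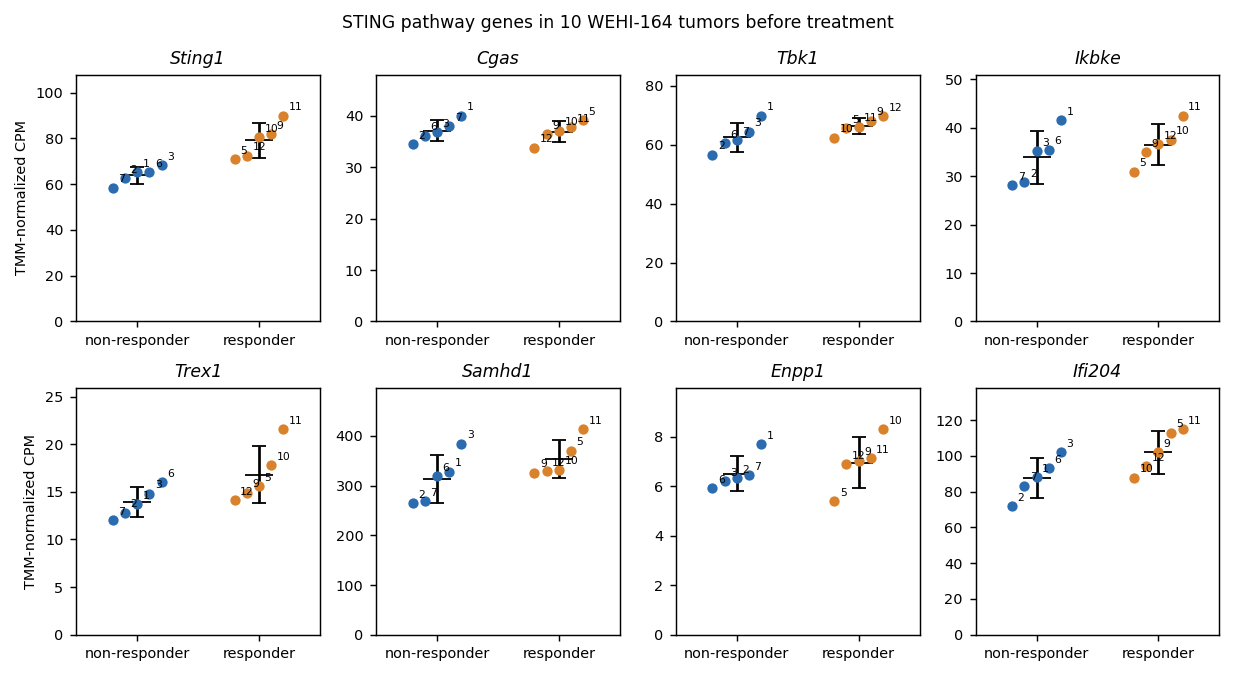
TMM-normalized CPM (vertical axes, starting at 0) of the 8 genes in the 5 non-responders and 5 responders, with one point per tumor, ordered by value and marked with its tumor number. Horizontal lines are means and bars are SD, and Sting1 is the panel in which the groups do not overlap, with responders from 71.0 to 89.9 and non-responders from 58.4 to 68.3 CPM.

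The sensors upstream of STING did not share one pattern. Cgas, the enzyme that makes cGAMP, was measured at 39.1, 36.4, 37.1, 37.8 and 33.8 CPM in responders 5, 9, 10, 11 and 12. The values of Cgas were 40.0, 34.5, 36.8, 36.1 and 37.9 CPM in non-responders 1, 2, 3, 6 and 7. The groups overlapped over nearly their whole range, and the highest and the lowest tumor of the 10 were a non-responder and a responder. The log2 fold change of Cgas was -0.01 ± 0.06, the only one of the 8 below 0. With single tumors left out it ran from -0.04 to 0.02, and was 0.02 without non-responder 1 and without responder 12. The gene (GRCm38, chr9:78430526-78443237, minus strand) is overlapped on the other strand by the pseudogene Gm8093, and 6.91% of its 31-base words also occurred in transcripts of other genes.

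Ifi204, an interferon-inducible DNA sensor of the PYHIN family, was measured at 113, 102, 87.7, 115 and 94.2 CPM in responders 5, 9, 10, 11 and 12. In non-responders 1, 2, 3, 6 and 7 it was measured at 88.2, 71.9, 102, 93.0 and 83.2 CPM. Responders 5 and 11 were above every non-responder, non-responders 2 and 7 were below every responder, and the other tumors were mixed. The log2 fold change was 0.23 ± 0.09, from means of 102 ± 11.9 and 87.6 ± 11.1 CPM. Ifi204 (GRCm38, chr1:173747293-173766943, minus strand) has PYHIN relatives of similar sequence, and 46.0% of its 31-base words were shared with other genes, mostly Ifi211, Mndal and Ifi207. Its estimated counts therefore depend on how the authors' quantification divided shared reads. Those 3 relatives, named after their values were seen, had log2 fold changes of 0.09 ± 0.1 (Ifi211), 0.22 ± 0.09 (Mndal) and 0.18 ± 0.12 (Ifi207).

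The kinases differed less between the groups than Sting1. Tbk1, the main STING-bound kinase (GRCm38, chr10:121546455-121586787, minus strand), ran from 62.3 to 69.6 CPM in responders and from 56.6 to 69.8 CPM in non-responders, with means of 66.3 ± 2.77 and 62.5 ± 4.93 and a log2 fold change of 0.09 ± 0.06. Non-responder 1 held the highest value of all 10 tumors and the remaining non-responders were mostly below the responders. Ikbke, which encodes the related kinase IKKε, was measured at 30.9, 35.0, 37.5, 42.5 and 36.6 CPM in responders 5, 9, 10, 11 and 12. In non-responders 1, 2, 3, 6 and 7 Ikbke was measured at 41.6, 28.8, 35.2, 35.5 and 28.2 CPM. The groups overlapped, since non-responder 1 was second among the 10 tumors and responder 5 was below 3 non-responders. The log2 fold change of Ikbke was 0.11 ± 0.11. The gene (GRCm38, chr1:131254343-131279606, minus strand) is overlapped on the other strand by the antisense genes Gm28913 and Gm28914, and no source used here says that the counting used strand.

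Trex1, an exonuclease that degrades cytosolic DNA, was measured at 15.6, 14.9, 17.8, 21.6 and 14.1 CPM in responders 5, 9, 10, 11 and 12. In non-responders 1, 2, 3, 6 and 7 it was measured at 13.7, 12.8, 14.8, 16 and 12 CPM. Responders 10 and 11 were above every non-responder and the other responders were mixed with the non-responders. The means were 16.8 ± 3.0 and 13.9 ± 1.58 CPM and the log2 fold change was 0.28 ± 0.12, or 0.17 without responder 11. Trex1 (GRCm38, chr9:109057933-109059734, minus strand) lies inside the same-strand gene Atrip in the annotation, and 97.6% of its 31-base words also occurred in Atrip transcripts. The division of reads between both genes is thus uncertain. Atrip, which encodes the partner protein of the ATR kinase, was at 22.4 ± 1.41 CPM in responders and 23.1 ± 1.51 in non-responders, with a log2 fold change of -0.05 ± 0.06.

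Samhd1, whose product limits reverse transcription and acts at stalled replication forks, was the most abundant of the 8. It was measured at 370.2, 326, 332, 414 and 329 CPM in responders 5, 9, 10, 11 and 12. Samhd1 values of 328, 265, 384, 319 and 269 CPM were found in non-responders 1, 2, 3, 6 and 7. Responders 9, 10 and 12 lay close together with responders 5 and 11 above them, whereas the non-responders ran from below all responders to above 4 of them. The log2 fold change was 0.18 ± 0.1, from means of 354 ± 37.9 and 313 ± 48.9 CPM. The gene lies at chr2:157097533-157135265 on the minus strand (GRCm38).

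Enpp1, which hydrolyzes extracellular cGAMP, was the least abundant. Its values ran from 5.4 to 8.32 CPM in responders and from 5.92 to 7.7 CPM in non-responders, with responder 5 the lowest and responder 10 the highest of all tumors. The log2 fold change was 0.09 ± 0.12. The gene lies at chr10:24637914-24712159 on the minus strand (GRCm38). Shared words of 31 bases were few in the remaining members, at 3.86% for Samhd1, 0.505% for Sting1, 0.407% for Ikbke and 0.0% for Tbk1 and Enpp1.

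The mean was higher in responders for 7 of the 8 genes, and the median log2 fold change was 0.14. Over all features tested, 50.3% had a higher mean in responders and the median log2 fold change was 0.0. At an adjusted p under 0.05 by edgeR's quasi-likelihood test, 0.0% of all features were called, and the smallest adjusted p was 0.555. Without adjustment, 1250 features passed the same threshold in edgeR, and 4.75% of features were higher and 3.61% lower in responders. Without responder 5, edgeR called 10 features after adjustment and 2095 passed before it. Without responder 11, 821 passed before adjustment. DESeq2 called 1 feature of the whole table and limma 0. Of the 8 genes, Sting1 was the one whose groups did not overlap. With single tumors left out the log2 fold changes ran from 0.17 to 0.33 for Trex1, from 0.16 to 0.29 for Ifi204 and from 0.11 to 0.26 for Samhd1, with the lowest values without responder 11, non-responder 2 and responder 11. They ran from 0.05 to 0.19 for Ikbke (highest without non-responder 1), from 0.05 to 0.12 for Tbk1 (lowest without non-responder 2) and from 0.02 to 0.17 for Enpp1 (lowest without responder 10, highest without responder 5).

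The rest of the pathway was described with 82 further genes in 6 lists by role, of which 81 were found by symbol and 80 were tested. Pyhin1 was not found, and Ifnb1, the interferon gene that STING signaling is best known to induce, had too few counts to be tested. None of the 80 was called by edgeR at an adjusted p under 0.05. Without adjustment 8 of the 80 were higher and 1 was lower in responders, against 4.75% and 3.61% of all features. With single tumors left out, from 5 to 9 were higher and from 1 to 3 lower. The higher mean was in the responders for 45 of the 80 (56.2%), and the median log2 fold change was 0.01. In none of the 80 was every responder above or below every non-responder. Of all features tested, 0.408% had every responder above and 0.475% had every responder below, so nothing is read from this absence.

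Among 19 other DNA sensors the median log2 fold change was 0.01, and 2 were higher in responders without adjustment. Zbp1, an interferon-inducible sensor of Z-form nucleic acids, was at 154 ± 26.1 CPM in responders and 113 ± 26.5 in non-responders (log2 fold change 0.45 ± 0.15, adjusted p = 0.555 by edgeR). Ifi203, a PYHIN relative of Ifi204, had a log2 fold change of 0.24 ± 0.09 (adjusted p = 0.567 by edgeR). The most abundant sensors of the list, the chromatin protein gene Hmgb1 and Lrrfip1, had log2 fold changes of -0.01 ± 0.05 and -0.08 ± 0.05.

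The genes that move or break down cGAMP and those that guard against DNA were centered near 0. The 10 cGAMP genes had a median log2 fold change of -0.03, with 1 of them higher without adjustment. This was Abcc1, which encodes a cGAMP exporter, at 127 ± 7.79 and 117 ± 7.62 CPM (log2 fold change 0.12 ± 0.06, adjusted p = 0.589 by edgeR). Slc19a1, which encodes a cGAMP importer, had a log2 fold change of -0.07 ± 0.07. In the 11 nucleases and guards the median was 0.03 and none was past an unadjusted p of 0.05. Of these the RNA-editing enzyme gene Adar and the DNA-bridging factor gene Banf1 were the most abundant, with log2 fold changes of 0.0 ± 0.07 and 0.07 ± 0.07.

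Genes that traffic or modify STING had a median log2 fold change of 0.0 over 19 genes. Nlrc3, a negative regulator of STING, was at 13.3 ± 1.52 CPM in responders and 11.2 ± 1.31 in non-responders (log2 fold change 0.24 ± 0.1, adjusted p = 0.573 by edgeR). Sec24c, a coat protein gene of the vesicles that carry STING to the Golgi, was at 139 ± 7.34 CPM in responders against 151 ± 4.08 CPM (log2 fold change -0.12 ± 0.04, adjusted p = 0.567 by edgeR). It was the one gene of the 6 lists that was lower in responders at an unadjusted p under 0.05 in edgeR. Surf4, which encodes a cargo receptor that returns STING to the endoplasmic reticulum, was among the most abundant of the list and had a log2 fold change of 0.0 ± 0.05.

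The 12 genes listed as kinase adaptors and transcription factors had a median log2 fold change of 0.04. Relb, an NF-κB subunit gene, and Traf6, a ubiquitin ligase adaptor gene, were higher in responders without adjustment, with log2 fold changes of 0.16 ± 0.06 and 0.12 ± 0.06 (adjusted p of 0.567 and 0.59 by edgeR). Nfkb1 and Traf3, the most abundant of the list, had log2 fold changes of 0.01 ± 0.1 and -0.03 ± 0.05.

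The transcriptional targets of the pathway held the largest differences. Their median log2 fold change was 0.06 over 9 genes, but -0.06 without responder 5 and 0.12 without non-responder 1, and the chemokine genes Cxcl10 and Ccl5, which draw T cells and NK cells, were higher in responders without adjustment. Ccl5 was at 14.5, 29.9, 40.5, 68.9 and 28.1 CPM in responders 5, 9, 10, 11 and 12 and at 20.5, 11.8, 16.6, 18.5 and 15.0 CPM in non-responders 1, 2, 3, 6 and 7. Responder 5 lay among the non-responders and the other 4 responders were above them all. The summed NK cell markers, given below, had the same arrangement, with 15.9 CPM in responder 5. The part of NK cells in the values of Ccl5 was not tested. The means of Ccl5 were 36.4 ± 20.4 and 16.5 ± 3.32 CPM (log2 fold change 1.15 ± 0.32, adjusted p = 0.555 by edgeR). Cxcl10 was at 222 ± 26.5 and 157 ± 37.7 CPM (log2 fold change 0.51 ± 0.14, adjusted p = 0.555 by edgeR), and non-responder 3, at 205 CPM, was above responders 10 and 12, at 193 and 197 CPM. Ifit2, an interferon-induced gene and the other of the most abundant targets beside Cxcl10, had a log2 fold change of -0.04 ± 0.1.

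**Figure D2:**
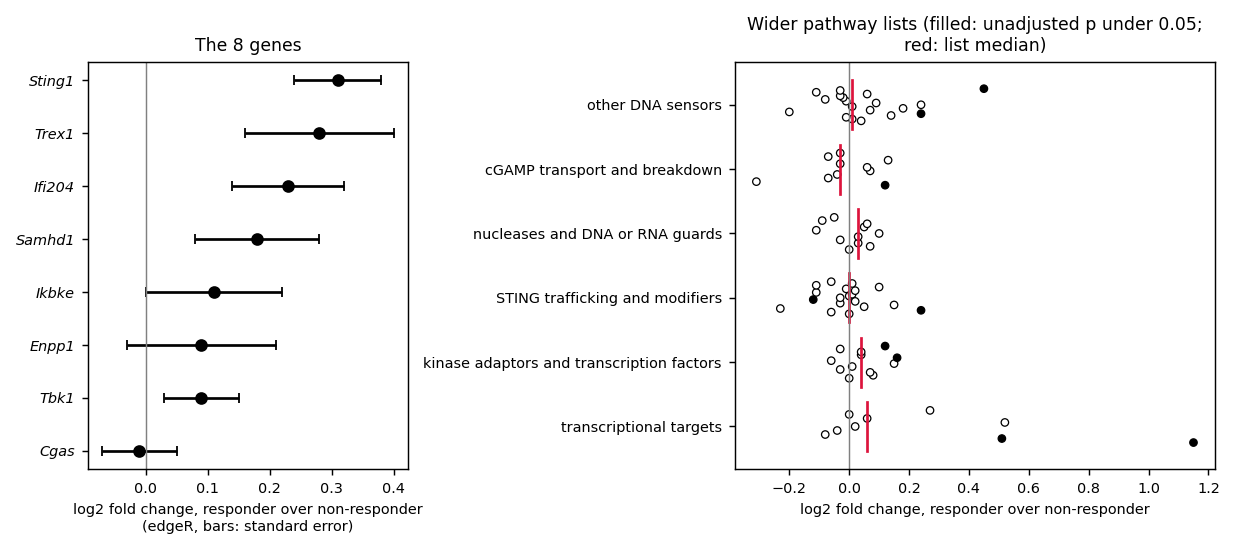
Left, log2 fold change of the 8 genes (responder over non-responder, edgeR), with bars for the standard error, from -0.01 for Cgas to 0.31 for Sting1. Right, log2 fold changes of the 80 tested genes of the 6 wider lists, one point per gene, filled where the unadjusted p is under 0.05, with the median of each list as a red line between -0.03 and 0.06.

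Macrophage markers and interferon response genes, like Sting1, had higher means in responders in most genes. The mean was higher in responders for 10 of 10 macrophage markers, and their summed level was 1488, 1782, 1818, 2057 and 1607 CPM in responders 5, 9, 10, 11 and 12. The same sum was 1884, 1396, 1614, 1496 and 1434 CPM in non-responders 1, 2, 3, 6 and 7. The groups overlapped, with non-responder 1 above 4 responders, and no macrophage marker was at 0. C1qa, a complement gene and the most abundant of them, was at 372 CPM in responders and 336 in non-responders. Of 41 interferon response genes, none of which is one of the 8 members, 38 were higher on average in responders. Their score, the mean of log2(CPM + 1) over the list, was 6.56 ± 0.14 in responders and 6.35 ± 0.21 in non-responders. These scores overlapped too, with non-responder 3 at 6.65 and responders 9, 10 and 12 at 6.61, 6.39 and 6.44.

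The other immune cell lists had lower sums than the macrophage list. The 6 NK cell markers summed to 75.6 CPM in responders and 27.0 in non-responders, with Gzma the most abundant at 57.0 and 16.2 CPM. Their sum was 15.9, 67.4, 81.5, 139.6 and 73.6 CPM in responders 5, 9, 10, 11 and 12. In non-responders 1, 2, 3, 6 and 7 this sum was 39.4, 12.1, 19.1, 45.4 and 19.1 CPM, so that responder 5 lay among the non-responders. Each of the 6 NK cell markers was higher on average in responders. The same held for all 8 T cell markers and all 5 neutrophil markers, with sums of 45.4 against 32.9 CPM and of 33.9 against 22.1 CPM. Their most abundant genes were Lck, at 10.6 against 7.19 CPM, and Csf3r, at 24.7 against 16.2 CPM. The T cell sum of responder 5 was 21.8 CPM, as in non-responder 2, the lowest of the non-responders. Monocyte markers were higher in 4 of 5 genes (sums of 249 and 245 CPM), though Ccr2, the most abundant, was at 81.7 CPM in responders against 95.8 in non-responders, and dendritic cell markers in 3 of 7 (57.1 and 63.0 CPM, led by Itgax at 42.3 against 48.6 CPM). B cell markers were near the filter, at sums of 1.83 and 1.91 CPM, with 3 of 5 genes above it and Cd79b the most abundant at 0.605 CPM.

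In non-immune cell types most markers had their higher mean in non-responders. A higher mean in responders was seen in 1 of 8 endothelial markers (sums of 189.9 and 208 CPM, led by Pecam1 at 73.8 against 68.9 CPM), 2 of 8 mesenchymal markers (10970.3 and 11582 CPM, led by Vim), 0 of 5 skeletal muscle markers (108 and 145 CPM, led by Acta1 at 53.7 against 62.5 CPM) and 0 of 4 adipocyte markers (24.1 and 26.1 CPM, led by Fabp4 at 21.2 against 22.3 CPM). The 5 keratinocyte markers summed to 3.39 and 3.34 CPM, and 8 of 10 housekeeping genes, led by Eef2 (3748 against 3826 CPM), had a higher mean in responders with sums of 10949 and 10611 CPM. No gene of any of these lists was called at an adjusted p under 0.05 by edgeR. The part of cell composition and of the interferon response in the values of Sting1 and the other 7 genes between responders and non-responders was not tested.

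The levels of the 8 genes over all 10 tumors did not depend on the contrast by which they were chosen. Compared between genes as CPM per kb of the median-length coding transcript, they ran from 126 ± 17.6 for Samhd1 through 52.2 ± 7.19 for Sting1, 41.4 ± 5.81 for Ifi204, 37.2 ± 2.46 for Tbk1, 14.4 ± 2.55 for Trex1, 12.3 ± 1.69 for Ikbke and 10.2 ± 0.525 for Cgas to 1.42 ± 0.181 for Enpp1 (SD, n = 10). On this scale Samhd1 was above 93.9% of genes with a known length, Sting1 above 83.1%, Cgas above 46.1% and Enpp1 above 20.3%. The message for STING was therefore well above that for cGAS in every tumor, while that for the cGAMP hydrolase was scarce.

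Neighbors in this order were compared by an exact two-sided sign-flip permutation test of the log2 ratio per kb over the 10 tumors. The test covers only the spread over tumors. It does not cover the choice of transcript length or the division of shared reads, which act on all tumors alike. Of the 31-base words, 97.6% in Trex1 and 46.0% in Ifi204 were shared with other genes. All 7 pairs passed an adjusted p of 0.05. With single tumors left out 6 or 7 passed, and 6 without non-responder 3, non-responder 6, responder 5, responder 9 or responder 11. The closest pair was Ifi204 over Tbk1, with a mean log2 ratio of 0.14 ± 0.17 (exact p = 0.0293, also 0.0293 after adjustment over the 7 pairs), which is smaller than its SD over tumors, and Ifi204 was higher in 8 of 10 tumors. Trex1 over Ikbke followed, at 0.22 ± 0.19 (exact p = 0.00586, adjusted 0.00684) in 9 of 10 tumors, and Cgas over Enpp1 was the widest, at 2.85 ± 0.19 in all 10. The order of one pair depended on the transcript length used. Sting1 was above Ifi204 by 0.34 ± 0.17 with the median-length transcript, and Ifi204 was above Sting1 by 0.41 ± 0.17 with the longest coding transcript, each in 10 of 10 tumors. With the longest transcript the log2 ratio of Ifi204 over Tbk1 was 0.95 and that of Tbk1 over Trex1 was 0.61, against 0.14 and 1.39 with the median-length transcript.

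**Figure D3:**
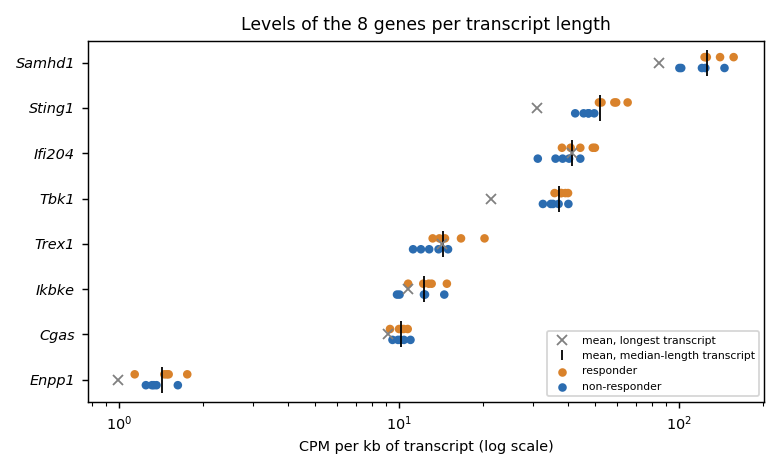
CPM per kb of transcript (log axis) of the 8 genes in each tumor, responders in orange and non-responders in blue, with black ticks for the mean with the median-length coding transcript and grey crosses for the mean with the longest. Samhd1 is highest at 126 and Enpp1 lowest at 1.42, and the crosses place Ifi204 above Sting1.

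To see what the 8 genes followed from tumor to tumor, each value of log2(CPM + 1) was taken as its deviation from the mean of its own group, so that the difference between responders and non-responders did not enter. The deviations were correlated over the 10 tumors with those of the interferon response score and of the macrophage marker score, 16 relations in all, with exact permutation of the tumors within their groups (14400 arrangements). Genes and scores came from the same libraries. Each relation was recomputed without the pair of tumors farthest from the median of the score itself (non-responder 2 and responder 5 for the interferon score, non-responder 7 and responder 11 for the macrophage score) and, added after seeing the data, without the pair with the most extreme deviations of the score (non-responders 2 and 3, and non-responder 1 and responder 11).

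Of the 8 genes, 4 passed an adjusted p of 0.05 with one of the scores by Pearson's r, and none with both. Ifi204 is itself interferon-inducible, and 46.0% of its 31-base words were shared with other genes. It followed the interferon response score, with Pearson's r = 0.955 (exact p = 0.000556, adjusted 0.00556) and Spearman's rho = 0.952 (exact p = 0.00125, adjusted 0.02). Its r was 0.943 without the most extreme deviations, non-responders 2 and 3 (exact p = 0.00833, n = 8), and 0.913 without non-responder 2 and responder 5 (exact p = 0.00174, n = 8). Its correlation with the macrophage score was 0.288 (exact p = 0.443, adjusted 0.472). Non-responder 3 was highest and non-responder 2 lowest in both Ifi204 and the interferon score among the deviations.

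Samhd1 was the other member correlated with the interferon response score, with r = 0.853 (exact p = 0.0091, adjusted 0.0364) and rho = 0.733 (exact p = 0.0253, adjusted 0.0964). This relation did not hold without non-responders 2 and 3, the most extreme deviations of the score, where r was 0.676 (exact p = 0.113, n = 8), while r was 0.828 without non-responder 2 and responder 5 (exact p = 0.0417, n = 8). The rank correlation missed the threshold after adjustment. Leaving out any of 7 single tumors also took the adjusted p of r past 0.05, with r between 0.743 and 0.911 over all 10 omissions and the lowest value without non-responder 3. With the macrophage score Samhd1 had r = 0.56 (exact p = 0.119, adjusted 0.272), and 0.733 without responder 5. With the monocyte score its r was 0.524, given as a description.

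Ikbke was correlated with the macrophage score. Its r was 0.934 (exact p = 0.000694, adjusted 0.00556) and its rho 0.879 (exact p = 0.0025, adjusted 0.02), and r was 0.848 without the most extreme deviations, non-responder 1 and responder 11 (exact p = 0.0278, n = 8), and 0.9 without non-responder 7 and responder 11 (exact p = 0.0191, n = 8). Non-responder 1, the tumor with the highest Ikbke deviation, also had the highest macrophage deviation, and responder 5 was low in both. With the interferon response score Ikbke had r = 0.296 (exact p = 0.49). The scores of other immune cells moved with Ikbke too. As a description added after seeing the data, its r over the same 10 tumors was 0.842 with the T cell score, 0.834 with the NK cell score, 0.806 with the neutrophil score, 0.736 with the monocyte score and 0.408 with the dendritic cell score. The part of each cell type in these relations was not tested.

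Sting1 was likewise correlated with the macrophage score, with r = 0.823 (exact p = 0.00715, adjusted 0.0364) and rho = 0.733 (exact p = 0.0301, adjusted 0.0964). The value depended on which tumors were left out. It was 0.938 without the most extreme deviations, non-responder 1 and responder 11 (exact p = 0.00694, n = 8), and 0.649 without non-responder 7 and responder 11 (exact p = 0.0955, n = 8), and leaving out any of 7 single tumors took the adjusted p past 0.05, with r from 0.736 (without responder 11) to 0.965. With the interferon response score the r of Sting1 was 0.343 (exact p = 0.304), and 0.763 without non-responder 2 and responder 5 (exact p = 0.0486, n = 8). With the T cell and NK cell scores the r of Sting1 was 0.714 and 0.719, and with the neutrophil, monocyte and dendritic cell scores it was 0.473, 0.453 and 0.214, given as a description. Responder 5 combined the highest interferon score of the responders with their lowest Sting1 and macrophage levels.

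The remaining members passed the threshold with neither score. With the macrophage score r was 0.682 for Enpp1 (exact p = 0.0435, adjusted 0.139), with rho = 0.721 (adjusted 0.0964). For Trex1 it was 0.647 (exact p = 0.0609, adjusted 0.162), with rho = 0.576 (adjusted 0.273). Cgas and Tbk1 had r between 0.382 and 0.472 with both scores, and these values rested on single tumors. Without non-responder 1 the r with the macrophage score was 0.0601 for Cgas and 0.0555 for Tbk1, and without responder 5 it was 0.765 for Cgas. Without non-responder 2 and responder 5 the r of Cgas with the interferon response score was -0.00374 (n = 8). The r of Enpp1 was 0.792 with the dendritic cell score and 0.782 with the T cell score, as a description. Enpp1 had the only negative value with the interferon response score, at -0.385 (exact p = 0.255). Whether the correlations of one member with both scores differed from each other was not tested.

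**Figure D4:**
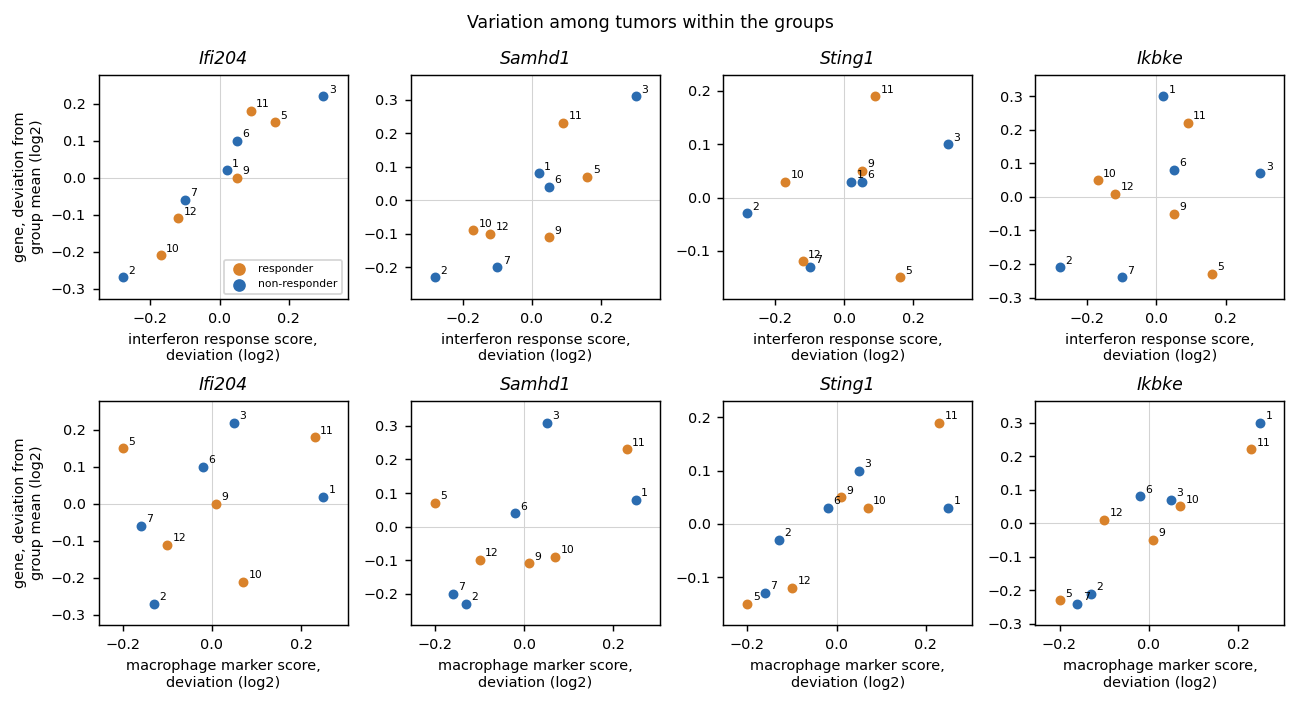
Deviation from the group mean, in log2 units, of Ifi204, Samhd1, Sting1 and Ikbke (vertical axes) against that of the interferon response score (top) and the macrophage marker score (bottom) in 10 tumors, numbered, responders in orange and non-responders in blue. Ifi204 lies near a line with the interferon score (r = 0.955) and Ikbke with the macrophage score (r = 0.934).

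RefSeq promoter windows (GRCm38.p6), which run from 250 bases before to 50 bases after a start, were matched by symbol for 6 of the 8 genes, in 7 windows, with none matched for Sting1 and Ifi204, and were searched on both strands for the core of the interferon-stimulated response element, GAAANNGAAA, and for the interferon-activated GAS element, TTCNNNGAA. The first was in 0 of the 7 windows and in 3.44% of all 32851 promoter windows, and the second in 1 of the 7 and in 8.3% of all. The sequences of Samhd1 and Ikbke are shown because these members with a matched promoter were correlated with one score each. They are limited to the bases upstream of the annotated transcripts, at chr2:157135266-157135346 for Samhd1 and chr1:131279607-131279813 for Ikbke, both minus strand and written 5′ to 3′, with the GAS match in capitals.
Samhd1: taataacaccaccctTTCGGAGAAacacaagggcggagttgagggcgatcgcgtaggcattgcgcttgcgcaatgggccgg
Ikbke: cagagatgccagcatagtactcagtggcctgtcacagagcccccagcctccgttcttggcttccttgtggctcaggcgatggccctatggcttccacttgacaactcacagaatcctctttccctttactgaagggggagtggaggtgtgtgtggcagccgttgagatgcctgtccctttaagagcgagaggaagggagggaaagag
The match in Samhd1 began 235 bases before the RefSeq start. A match is a description of the letters, not of a bound site.

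Among themselves the members varied together in part. Over the 28 pairs, 25 correlations of the deviations were above 0, with a median r of 0.41 over the 10 tumors, given as a description since all pairs share the same libraries. The closest pairs were Samhd1 with Ifi204 (0.86), Sting1 with Trex1 (0.8) and Sting1 with Ikbke (0.71). Sting1 had r = 0.08 with Tbk1 and 0.11 with Cgas, the kinase and the sensor next to it in the pathway. Enpp1 and Ifi204 had the lowest value, -0.42.

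**Figure D5:**
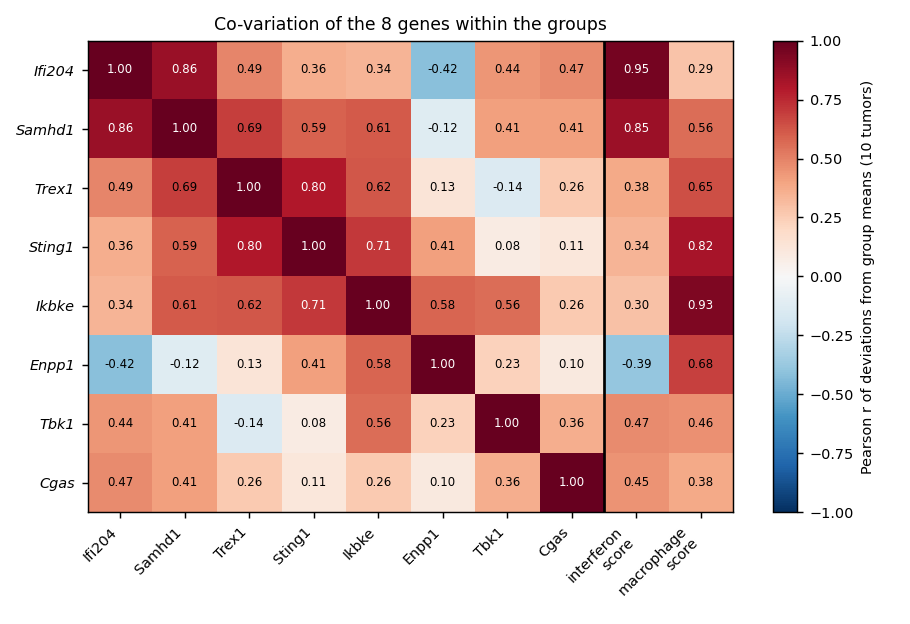
Pearson's r of the deviations from the group means over 10 tumors, for each pair of the 8 genes and, right of the black line, for each gene with the interferon response and macrophage scores. Red marks positive and blue negative values, from -0.42 for Enpp1 with Ifi204 to 0.955 for Ifi204 with the interferon score.

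The features most like Sting1 in this respect were sought among 9892 features with a mean of at least 10 CPM. By r of the deviations over the 10 tumors they were Acvrl1 (0.95), Dalrd3 (0.94), Sdc3 (0.94), Fxyd5 (0.93) and Igsf6 (0.93). Acvrl1, which encodes a receptor of the TGF-β family, was at 21.9 ± 3.51 CPM in responders and 18.7 ± 2.04 in non-responders. Sdc3, a syndecan gene, was at 194 ± 18.9 and 191 ± 20.6 CPM. On this scale of likeness Trex1 was above 98.3% of the features and Ikbke above 95.5%, Samhd1 above 91.3% and Ifi204 above 79.2%, whereas Cgas and Tbk1 were above 60.9% and 58.0%.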

How the data were processed

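Per the labels, polyA RNA from 10 WEHI-164 tumors was sequenced as paired reads and quantified by the authors with kallisto on GRCm38. The study's methods add that transcripts were summarized per gene. The annotation release is not given in the sources used here. The authors deposited these estimated counts per gene without normalization, in a table of 36009 rows. The 9580 rows without a gene name (1.2 to 1.49% of the counts per tumor) were left out of library sizes and tests, and 44 names stood on more than 1 row and were summed. Depth per tumor is given above, and its part in the values was not tested.

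Counts were rounded and tested with edgeR 4.0.16 (quasi-likelihood, TMM, CPM above 0.366 in at least 3 tumors, Benjamini-Hochberg adjustment over all 14944 features, threshold 0.05). The filter is the one the study gives for its time course. Deviations used log2(CPM + 1). Words of 31 bases were compared between transcripts of the GENCODE annotation for GRCm38. Code was tested on simulated data. Alternatives were DESeq2 1.42.0, limma 3.58.1, other normalizations and filters, transcript lengths, pseudocounts and each tumor left out.

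The members and lists were chosen with earlier results of these data known. Named genes are all members, the 2 most abundant genes of each wider list and any with an unadjusted p under 0.05, the 5 features most like Sting1 and the most abundant gene of each marker list. Each tumor stands for 1 mouse in the study, and no source used here gives a batch. The position of Sting1 and a few genes that this rule names are not reported here.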

Additional observations from a re-analysis of the deposited data

Results flagged for a closer look

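One value stood apart by Dixon's test. Nfkb1, an NF-κB subunit gene, was at 186 CPM in non-responder 1, against 128 to 135 CPM in the other 4 non-responders. Of 58 groups of 5 tumors examined, 1 was marked in this way, where chance gives about 2.9.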

How the results depend on the processing

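No paired analysis was possible because the tumor numbers are unique across the groups. None of the wider lists' genes was called in any of 17 alternatives, and the members with a log2 fold change above 0 numbered 7 to 8, with Cgas between -0.04 and 0.02 and Sting1 between 0.26 and 0.35. DESeq2 called 1 feature of the whole table. Library size alone gave 2 wider-list genes lower at an unadjusted p under 0.05. With single tumors left out, the features called ran from 0 to 10 (10 without responder 5), those at an unadjusted p under 0.05 from 821 (without responder 11) to 2095 (without responder 5), and the wider-list genes from 5 to 9 higher and from 1 to 3 lower. The members correlated with each score at an adjusted p under 0.05 then numbered from 1 to 2, and differing neighbors in level from 6 to 7. The log2 ratio per kb of Sting1 over Ifi204 reversed to -0.41 with the longest transcript. The cause of these changes was not tested. The median log2 fold change of the pathway's transcriptional targets ran from -0.06 (without responder 5) to 0.16 (no filter), that of the cGAMP genes from -0.04 to 0.03 (without responder 11) and that of the nucleases and guards from -0.02 to 0.05. The counts of Trex1 and Ifi204 rest on shared reads.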
